A study of Homo sapiens with 6 samples.

Results

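The Notch genes examined were 3 receptors (*NOTCH1*, *NOTCH2*, *NOTCH3*), 4 ligands (*JAG1*, *JAG2*, *DLL1*, *DLL3*) and 3 target genes (*HES1*, *HEY1*, *HEYL*). They were taken by symbol from an RNA-Seq table of AN3CA cells. Of the 10 symbols, 9 were found among 17471 listed genes, and *HEYL* was not analysed here. All 9 passed a filter that asked for at least 0.5 TPM in at least 3 libraries, as did 13163 genes in all. TPM is a read count divided by gene length and given as a share of the library total, scaled alike in all libraries. Levels of different genes can therefore be compared only as far as the gene lengths used are right. *JAG2* passed the filter only through the shEV libraries, where it was high, and *DLL1* reached 0.5 TPM in all shPAX2 libraries and in 2 shEV libraries.

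AN3CA is an established human endometrial cancer line that expresses *PAX2*, a paired-box transcription factor of the developing kidney and female reproductive tract. Per the labels, 3 libraries came from cells with an empty hairpin vector (shEV, genotype WT) and 3 from cells with a hairpin against *PAX2* (shPAX2, genotype PAX2 KD). Both populations received a lentiviral vector and were selected with puromycin, and the knockdown rests on a single hairpin sequence. Nothing in the labels says that replicates came from separate cultures, so the p-values measure the spread between these libraries, which may be technical. The comparison asks how expression of the Notch genes differed after *PAX2* knockdown in this line.

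The libraries held 10730909 to 18221859 reads in shEV and 19422615 to 29405787 in shPAX2, so depth and group moved together. *PAX2* itself stood at 4.03, 3.66 and 2.74 TPM in shEV and at 0.916, 0.723 and 1.17 TPM in shPAX2. The labels call the cells epithelial, but 6 of the 7 epithelial markers examined, among them *CDH1*, *EPCAM* and *KRT19*, were below 0.5 TPM in every library. *KRT18* was present at 10.2 to 17.5 TPM, and *VIM*, a mesenchymal intermediate filament gene, at 3750 to 4410 TPM. Of the other mesenchymal markers, *ZEB1* was at 79.4 to 94.1 TPM, *FN1* at 0.131 to 0.827 TPM, and *CDH2* and *ZEB2* below 0.5 TPM in every library. The endothelial markers found (2 of 4) summed to at most 0.0611 TPM and the leukocyte markers found (3 of 4) to at most 0.241 TPM. Of the fibroblast markers, 4 of 6 were found. *THY1* and *PDGFRA* were below 0.5 TPM throughout and *COL1A1* averaged 1.02 TPM in shEV and 0.888 TPM in shPAX2. *COL3A1* averaged 35.1 TPM in shEV and 242 TPM in shPAX2, and the part of this difference in the Notch values was not tested. In bulk RNA, fewer cells with a transcript and less of it per cell cannot be told apart.

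Notch signaling passes between neighboring cells. Jagged and Delta-like ligands on one cell bind Notch receptors on the next, the receptor is cut by ADAM proteases and then by gamma-secretase, and its intracellular domain enters the nucleus. There it joins the DNA-binding protein RBPJ and a Mastermind coactivator to switch on repressors of the HES and HEY families. In the endometrium and other epithelia the pathway takes part in differentiation and in the balance between division and maturation.

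The promoters of *HES1* and *JAG1*, which had the smallest adjusted p-values of the Notch genes, are shown because *HES1* is the textbook target of the receptor and *JAG1* the most abundant ligand. The sequences are RefSeq windows of the 250 bases before the gene start, in the direction of transcription, on GRCh38.p14. *HES1* lies on the plus strand at chr3:194135898-194136147 and *JAG1* on the minus strand at chr20:10674000-10674249. Capitals mark TGGGAA, the core of the RBPJ recognition sequence, on either strand.
HES1: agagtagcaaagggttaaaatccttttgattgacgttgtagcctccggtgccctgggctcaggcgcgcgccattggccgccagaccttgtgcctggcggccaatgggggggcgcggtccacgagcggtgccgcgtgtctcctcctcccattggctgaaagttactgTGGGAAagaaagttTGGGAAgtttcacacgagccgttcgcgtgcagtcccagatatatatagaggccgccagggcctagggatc
JAG1: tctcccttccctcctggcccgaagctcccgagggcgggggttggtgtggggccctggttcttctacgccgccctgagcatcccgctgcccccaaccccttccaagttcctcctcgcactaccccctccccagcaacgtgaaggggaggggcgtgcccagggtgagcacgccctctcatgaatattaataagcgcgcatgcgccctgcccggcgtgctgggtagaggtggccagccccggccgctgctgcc

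Motifs were searched in windows that run a further 50 bases past the start. The *HES1* window held TGGGAA at 84 and at 70 bases before the start, both in the forward direction. At least 1 match was found in 24.0% of all 35116 RefSeq promoter windows and at least 2 in 3.80%. A window was matched for 6 of the 9 Notch genes, all of them lower in shPAX2, and TGGGAA occurred in none of the other 5. The N-box CACNAG, a sequence bound by HES1 itself, was searched on both strands and did not overlap TGGGAA in *HES1*. *HES1* had 4 matches, the last of them 15 bases after the start, *NOTCH1*, *NOTCH2* and *NOTCH3* had at least 1 each, and *JAG1* and *JAG2* had none, against 38.0% of all windows with a match. These are matches of letters and do not show binding.

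After *PAX2* knockdown, all 3 receptors, the ligands *JAG1* and *JAG2* and the target *HES1* were lower, while the ligand *DLL1* and the target *HEY1* were higher and *DLL3* did not pass the test. The test was limma on log2(TPM + 0.5) with Benjamini-Hochberg adjustment over all 13163 genes. With the adjusted p below 0.05, 6 of 9 were lower and 2 of 9 higher, where 30.5% and 12.2% of all genes tested were, and the 6 include *JAG2*, which entered the test through shEV alone. A log2 fold change of at least 1 was also reached by *JAG1*, lower, and *DLL1*, higher, where 3.11% and 1.43% of all genes were called in these directions. The median log2 fold change was -0.53 over the 9 genes and -0.10 over all that were tested. The groups did not overlap in 8 of 9 genes, 6 with shPAX2 lower and 2 with it higher, against 54.9% of all genes tested (39.0% lower, 15.9% higher). These 6 again include *JAG2*, whose groups could not overlap once it had passed the filter through shEV alone.

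**Figure D1:**
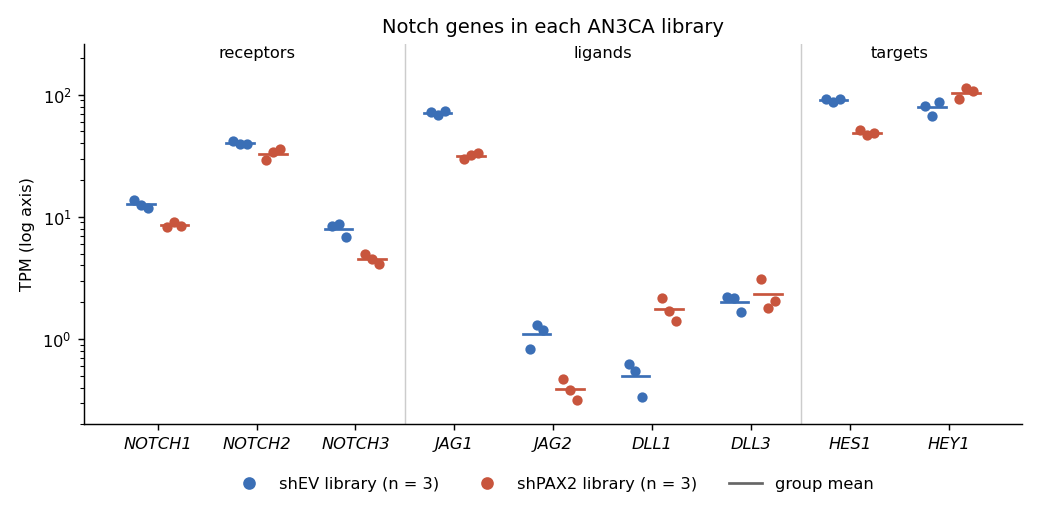
TPM of each Notch gene on a log axis, with 1 point per library (blue shEV, red shPAX2, n = 3 each) and a bar at the group mean. *JAG1* lies at 68.4 to 73.5 TPM in shEV and 29.9 to 33.0 TPM in shPAX2, and *DLL3* is the only gene whose groups overlap.

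Among the receptors, *NOTCH2* was the most abundant in every library. *NOTCH2* (chromosome 1, 120454176 to 120643366, GRCh37, minus strand) had 41.7, 39.8 and 39.8 TPM in the shEV libraries and 29.1, 33.9 and 35.7 TPM in the shPAX2 libraries, in the order of their replicate numbers. Every shPAX2 value was below every shEV value, and shPAX2 replicate 1 was the lowest. It averaged 40.4 ± 1.12 TPM and then 32.9 ± 3.37 TPM (SD, n = 3 each). On the log2 scale it fell by 0.30 (SE 0.08, limma adjusted p 0.0152). Its call was lost under median-of-ratios scaling, at -0.19 with a limma adjusted p of 0.0809 (0.00234 to 0.0809 over the alternatives). Reads of *NOTCH2* are uncertain because *NOTCH2NL*, a partial copy of it, is listed separately. *NOTCH2NL* averaged 8.92 TPM in shEV and 7.74 TPM in shPAX2 (limma adjusted p 0.0900), and the log2 ratio of *NOTCH2* to it was 2.18 ± 0.111 and 2.08 ± 0.0915 (SD, n = 3 each).

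*NOTCH3*, a receptor best known from vascular smooth muscle and from several carcinomas, fell the most of the receptors on the log2 scale. *NOTCH3* (chromosome 19, 15269849 to 15311806, GRCh37, minus strand) stood at 8.40, 8.80 and 6.86 TPM in shEV and at 4.94, 4.48 and 4.10 TPM in shPAX2. The groups did not overlap, and the lowest shEV library was still above the highest shPAX2 library. The shPAX2 mean was 56.2% of the shEV mean, and the log2 fold change was -0.76 (SE 0.12, limma adjusted p 0.00103). *NOTCH1* (chromosome 9, 139388885 to 139440500, GRCh37, minus strand), the receptor first described as a leukemia oncogene, stood at 13.7, 12.4 and 11.8 TPM in shEV and at 8.23, 9.12 and 8.48 TPM in shPAX2. Its libraries separated by group as well, and its log2 fold change was -0.53 (SE 0.08, limma adjusted p 0.00130). The listed microRNA gene *MIR4673* overlaps *NOTCH1* on the same strand.

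Summed over the 3 receptors, shEV had 61.1 ± 2.71 TPM and shPAX2 had 46.0 ± 3.23 TPM (SD, n = 3 each). *NOTCH2* supplied 66.2% ± 1.62 of this sum in shEV and 71.4% ± 2.52 in shPAX2 (SD, n = 3 each), and *NOTCH3* supplied 13.1% ± 1.35 and 9.86% ± 1.63. The shPAX2 libraries were thus lower in receptor transcripts and held a larger share of *NOTCH2*. For each of these values the groups did not overlap, and p was 0.1 by exact permutation (two-sided), which is the lowest possible with 3 libraries a group. These sums, shares and ratios were chosen after the values had been seen.

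The ligand *JAG1*, mutated in Alagille syndrome, fell the most of the 9 genes on the log2(TPM + 0.5) scale. *JAG1* (chromosome 20, 10618332 to 10654647, GRCh37, minus strand) had 72.1, 68.4 and 73.5 TPM in shEV (2316, 3618 and 3974 reads). Its shPAX2 values were 29.9, 32.0 and 33.0 TPM (2736, 2585 and 1930 reads). The gap between the groups was far wider than the spread within either. The means were 71.3 ± 2.64 and 31.6 ± 1.62 TPM (SD, n = 3 each). The log2 fold change was -1.16 (SE 0.06, limma adjusted p 2.93e-06). It passed both thresholds in each of 15 alternatives, from -1.19 to -1.05. Its promoter, printed above, held neither of the motifs searched.

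*JAG2*, its close relative, was a low transcript. *JAG2* (chromosome 14, 105607319 to 105635161, GRCh37, minus strand) stood at 0.830, 1.30 and 1.20 TPM in shEV and at 0.470, 0.381 and 0.316 TPM in shPAX2. All shPAX2 libraries were below all shEV libraries, although they were deeper. *JAG2* passed the filter only through the shEV libraries, where it was high, so it had to differ, and its test is a description. The reads numbered 26, 67 and 63 in shEV and 42, 30 and 18 in shPAX2. The log2 fold change was -0.85 (SE 0.18, limma adjusted p 0.00607), and the shPAX2 mean was 35.1% of the shEV mean. The added pseudocount shrinks the fold change of so low a gene. With a pseudocount of 0.1 its log2 fold change was -1.29 and with voom on the reads -1.49, both past the fold threshold.

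Of the Delta-like ligands, *DLL1* was higher and *DLL3* did not pass the test. *DLL1* (chromosome 6, 170591294 to 170615653, GRCh37, minus strand), which works in somite formation and in lateral inhibition, had 0.619, 0.547 and 0.335 TPM in shEV (11, 16 and 10 reads). Its shPAX2 values were 2.17, 1.68 and 1.39 TPM (110, 75 and 45 reads). The lowest shPAX2 library was well above the highest shEV library. The shPAX2 mean of 1.75 ± 0.393 TPM (SD, n = 3) was 350% of the shEV mean, and the log2 fold change was 1.17 (SE 0.19, limma adjusted p 0.00149). The value depended on the pseudocount, from 0.87 with a pseudocount of 1, below the fold threshold, to 1.88 with voom.

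*DLL1* lies on chromosome 6, where the median over 556 tested genes was 0.40 on the log2 scale, whereas every other chromosome had a median between -0.18 and -0.06. *DLL1* was 0.76 above the chromosome 6 median. The part of the chromosome in the value of *DLL1* was not tested. None of the other 8 Notch genes lies on chromosome 6, and relative to the medians of their own chromosomes they kept their directions. *DLL1* also overlaps *FAM120B* on the opposite strand.

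*DLL3*, a Delta-like ligand that acts inside the cell to dampen Notch signaling, did not pass the test. *DLL3* (chromosome 19, 39989535 to 39999121, GRCh37, plus strand) stood at 2.19, 2.18 and 1.67 TPM in shEV and at 3.07, 1.81 and 2.06 TPM in shPAX2. The groups overlapped, and shPAX2 replicate 1 alone was above all shEV libraries. The log2 fold change was 0.14 with a 95% interval of -0.28 to 0.56 (limma adjusted p 0.566), from 14 to 56 reads per library. Without shPAX2 replicate 1 the sign turned, to -0.04.

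The 4 ligands together summed to 74.9 ± 2.25 TPM in shEV but 36.1 ± 0.641 TPM after knockdown (SD, n = 3 each). *JAG1* made up 95.2% ± 0.696 of this sum in shEV and 87.6% ± 3.21 in shPAX2. The share of *DLL1* was 0.670% ± 0.205 in shEV and 4.86% ± 1.17 in shPAX2 (SD, n = 3 each). Jagged transcripts therefore outnumbered Delta-like ones in every library of both groups, and the log2 ratio of *JAG1* to *DLL1* went from 7.20 ± 0.502 to 4.20 ± 0.396 (exact two-sided permutation p = 0.1, n = 3 each).

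**Figure D2:**
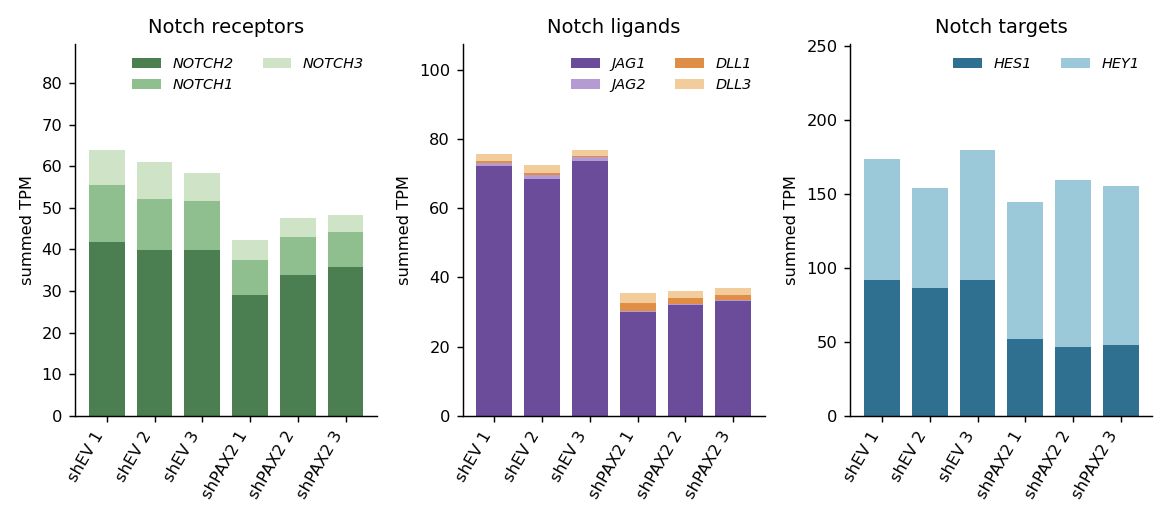
Stacked TPM of the receptors, ligands and targets in each of the 6 libraries (shEV 1 to 3, shPAX2 1 to 3), with linear axes from 0. The ligand sum falls from 74.9 to 36.1 TPM on average through *JAG1*, and the target sum averages 169 and 153 TPM while the *HES1* segment shrinks and the *HEY1* segment grows.

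Both analysed targets encode repressors of the basic helix-loop-helix class, and they moved in opposite directions. *HES1* (chromosome 3, 193853937 to 193856521, GRCh37, plus strand) stood at 92.0, 86.5 and 91.7 TPM in shEV and at 51.7, 46.8 and 48.1 TPM in shPAX2. The groups were far apart, and each varied little. *HES1* averaged 90.1 ± 3.10 TPM against 48.9 ± 2.55 TPM (SD, n = 3 each). The log2 fold change was -0.88 (SE 0.06, limma adjusted p 1.44e-05). It was below the fold threshold of 1 and passed the adjusted p in each of 15 alternatives, from -0.92 to -0.76.

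*HEY1* (chromosome 8, 80674606 to 80680092, GRCh37, minus strand), a repressor of the heart and vessels that is also a direct Notch target, stood at 81.2, 67.4 and 87.8 TPM in shEV and at 92.4, 113 and 107 TPM in shPAX2. The shPAX2 libraries were all higher, but shEV replicate 3 and shPAX2 replicate 1 came close. *HEY1* averaged 78.8 ± 10.4 TPM against 104 ± 10.5 TPM (SD, n = 3 each). The log2 fold change was 0.40 (SE 0.11, limma adjusted p 0.0194). The call was lost when shPAX2 replicate 2 or 3 was left out, which also leaves fewer libraries for the test. Without shPAX2 replicate 2 the value was 0.34 (limma adjusted p 0.0659) and without shPAX2 replicate 3 it was 0.38 (limma adjusted p 0.0662).

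The ratio of the 2 targets within a library is free of the scaling of libraries. The log2 ratio of *HES1* to *HEY1* was 0.18, 0.36 and 0.06 in shEV and -0.84, -1.27 and -1.15 in shPAX2. In TPM, *HES1* was the higher of the 2 in every shEV library and the lower in every shPAX2 library. In reads, *HEY1* was above *HES1* in shEV as well (1005, 1374 and 1828 against 722, 1117 and 1210). Their order in shEV thus rests on the gene lengths used. The mean ratio moved by -1.29 on the log2 scale (exact two-sided permutation p = 0.1, n = 3 each). The sum of both averaged 169 ± 13.3 TPM before and 153 ± 7.96 TPM after knockdown, and its groups overlapped (exact two-sided permutation p = 0.3, n = 3 each).

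Ordered by mean TPM, which depends on the gene lengths used, the genes ran *HES1*, *HEY1*, *JAG1*, *NOTCH2*, *NOTCH1*, *NOTCH3*, *DLL3*, *JAG2* and *DLL1* in shEV. The ranges over libraries of *HES1* and *HEY1*, and of *HEY1* and *JAG1*, overlapped there, and all other neighbors were apart. In shPAX2 the order was *HEY1*, *HES1*, *NOTCH2*, *JAG1*, *NOTCH1*, *NOTCH3*, *DLL3*, *DLL1* and *JAG2*. The ranges of *NOTCH2* and *JAG1*, and of *DLL3* and *DLL1*, overlapped in that group. *JAG1* thus stood above *NOTCH2* in every shEV library, by 0.82 ± 0.0582 on the log2 scale, and level with it in shPAX2, at -0.05 ± 0.0771 (SD, n = 3 each).

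**Figure D3:**
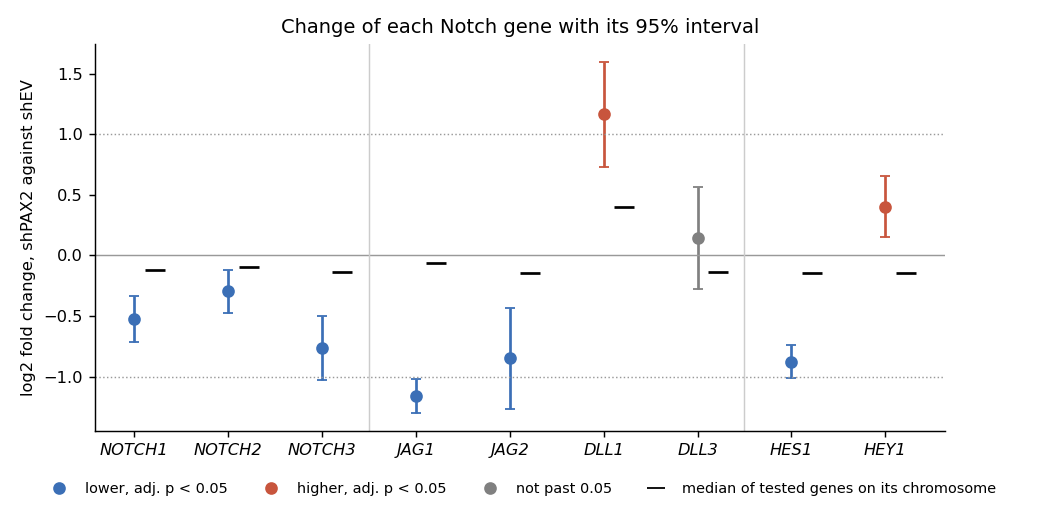
Log2 fold change of each Notch gene, shPAX2 against shEV, on the log2(TPM + 0.5) scale, with its 95% interval from limma (3 libraries per group) and a black bar at the median of the tested genes on its chromosome. *JAG1* at -1.16 and *DLL1* at 1.17 lie beyond the dotted lines at -1 and 1, and the bar of *DLL1*, on chromosome 6, is at 0.40.

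For *JAG1* and *DLL1*, the genes with the closest profile over the 6 libraries were found by Euclidean distance between centred log2(TPM + 0.5) values. Nearest to *JAG1* were *NRG4* (distance 0.0998), *JAZF1* (0.116) and *ZDHHC23* (0.123), with log2 fold changes of -1.19, -1.22 and -1.10. Nearest to *DLL1* were *LOC100128568* (0.236), *EMX2* (0.310) and *SNORD52* (0.324), with log2 fold changes of 1.03, 1.36 and 1.25. *EMX2* averaged 0.0345 TPM in shEV and 0.886 TPM in shPAX2. It passed the filter only through shPAX2, where it was high, so it had to differ. The measure mainly reflects the size of the difference between the groups.

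The rest of the pathway was followed in a list of 63 other genes, of which 59 were found and 49 tested. With a limma adjusted p below 0.05, 22 of the 49 were lower and 5 higher, or 55.1% against 42.8% of all genes tested. Under median-of-ratios scaling the same list had 11 lower and 8 higher genes, and all genes tested went from 30.5% lower and 12.2% higher to 19.6% lower and 21.8% higher. The list had a median log2 fold change of -0.23. Past both thresholds were 3 genes, all lower, which is 6.12% of the list against 4.54% of all genes. These were *TLE1*, *CDKN1A* and *DTX4*, of which *TLE1* entered the test only through the group where it was high, so the share is a description.

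*TLE1*, a Groucho corepressor that works with HES proteins, stood at 1.77, 1.18 and 1.80 TPM in shEV and at 0.260, 0.204 and 0.0940 TPM in shPAX2. Its log2 fold change was -1.59 (SE 0.20, limma adjusted p 0.000321), from 31, 34 and 53 reads against 13, 9 and 3. It passed the filter only through the 3 shEV libraries, where it was high, so it had to differ, and leaving out any of them removed it from the test. *CDKN1A*, the p21 cell cycle inhibitor, stood at 9.48, 5.15 and 4.85 TPM in shEV and at 1.94, 1.98 and 2.09 TPM in shPAX2, with shEV replicate 1 well above the rest. Its log2 fold change was -1.42 (SE 0.23, limma adjusted p 0.00182), although it lies on chromosome 6. *DTX4*, an E3 ubiquitin ligase of the Deltex family, averaged 5.37 ± 0.594 TPM against 2.41 ± 0.363 TPM (SD, n = 3 each), at -1.01 on the log2 scale (SE 0.13, limma adjusted p 0.000484). It fell short of the fold threshold without shEV replicate 3 (-0.94), without shPAX2 replicate 2 (-0.91), with a pseudocount of 1 (-0.90), under median-of-ratios scaling (-0.92) and under quantile normalization (-0.76).

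The counts by role are small, were not compared by a test, and stand beside 30.5% lower and 12.2% higher among all genes tested. Of 11 tested corepressors, 7 were lower (*TLE1* included) and 1 higher. The higher one was *HDAC2*, at 0.77 (SE 0.06, limma adjusted p 1.76e-05), which lies on chromosome 6 and was 0.37 above the median there. The most abundant corepressor, *HDAC1*, was at 0.09 (limma adjusted p 0.232), but passed under median-of-ratios scaling at 0.21 (limma adjusted p 0.0205). Of 9 proteases that cut the receptor or its precursor, 2 were lower and 2 higher, close to the share among all genes (42.8% in either direction). The most abundant, the gamma-secretase subunit *APH1A*, rose from 203 ± 11.3 to 254 ± 9.30 TPM (SD, n = 3 each; limma adjusted p 0.00342). Of 7 genes of the nuclear complex, 3 were lower (30.5% of all genes tested) and 0 higher, together again close to the share in either direction. Among the 3 was the acetyltransferase *KAT2B* at -0.98 (limma adjusted p 0.000139). *RBPJ*, the DNA-binding partner of all Notch receptors, was not among them, at -0.23 with a 95% interval of -0.49 to 0.03 (limma adjusted p 0.133). Over the alternatives the limma adjusted p of *RBPJ* ran from 0.0170 to 0.426, so its result depended on the setting. *SNW1*, the most abundant of the 7, was at -0.02 (limma adjusted p 0.788).

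Among genes that prepare the ligand for signaling, 3 of 5 were lower (30.5% of all genes tested), with the E3 ligase *MIB1* at -0.27 (limma adjusted p 0.00658, lost under median-of-ratios scaling at -0.16). Of 4 tested glycosyltransferases, 1 was higher and 1 lower. The lower was *RFNG*, a fringe enzyme, at -0.29 (limma adjusted p 0.0124, lost under median-of-ratios scaling at -0.18). Of 7 negative regulators 4 were lower, and *ITCH*, the most abundant, was at 0.05 (limma adjusted p 0.541). Under median-of-ratios scaling *ITCH* passed at 0.16 (limma adjusted p 0.0442). *NRARP*, a feedback inhibitor and itself a Notch target, stood at 4.33, 4.45 and 5.28 TPM in shEV and at 3.29, 3.09 and 2.74 TPM in shPAX2 (log2 fold change -0.55, limma adjusted p 0.00608, and 0.00586 to 0.0653 over the alternatives). Its groups did not overlap.

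Of 5 other targets tested, 2 were lower and 1 higher, where 30.5% and 12.2% of all genes were. *MYC* was lower at -0.35 (SE 0.09, limma adjusted p 0.0136), but did not pass at -0.31 without shEV replicate 2, at -0.30 without shEV replicate 3 or at -0.24 under median-of-ratios scaling. *HEY2*, the close relative of *HEY1*, stood at 5.58, 4.87 and 5.10 TPM in shEV and at 7.04, 6.44 and 6.37 TPM in shPAX2. Its log2 fold change was 0.33 (SE 0.09, limma adjusted p 0.0221, and 0.00171 to 0.0732 over the alternatives), and relative to the median of chromosome 6, where it lies, it was -0.08. *NRARP*, *HEY2*, *HDAC2*, *KAT2B* and *RBPJ* were singled out after their values were seen. *DLK2*, the only other tested ligand, was at 0.12 (limma adjusted p 0.475). *NOTCH4* (0.306 to 0.505 TPM, 120 to 309 reads) and *DLL4* (0.0599 to 0.298 TPM, 2 to 11 reads) did not pass the filter. The gene length behind the *NOTCH4* values was 6.49 times its annotated exon length, relative to the median gene, against 1.06 for *NOTCH1*. The TPM of *NOTCH4* may therefore understate its level, and its change was not tested. TGGGAA was found in 7 of 48 promoter windows of the list, or 14.6%, in 1 of the 19 windows of genes that were lower and in 2 of the 5 of genes that were higher, against 24.0% of all windows.

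**Figure D4:**
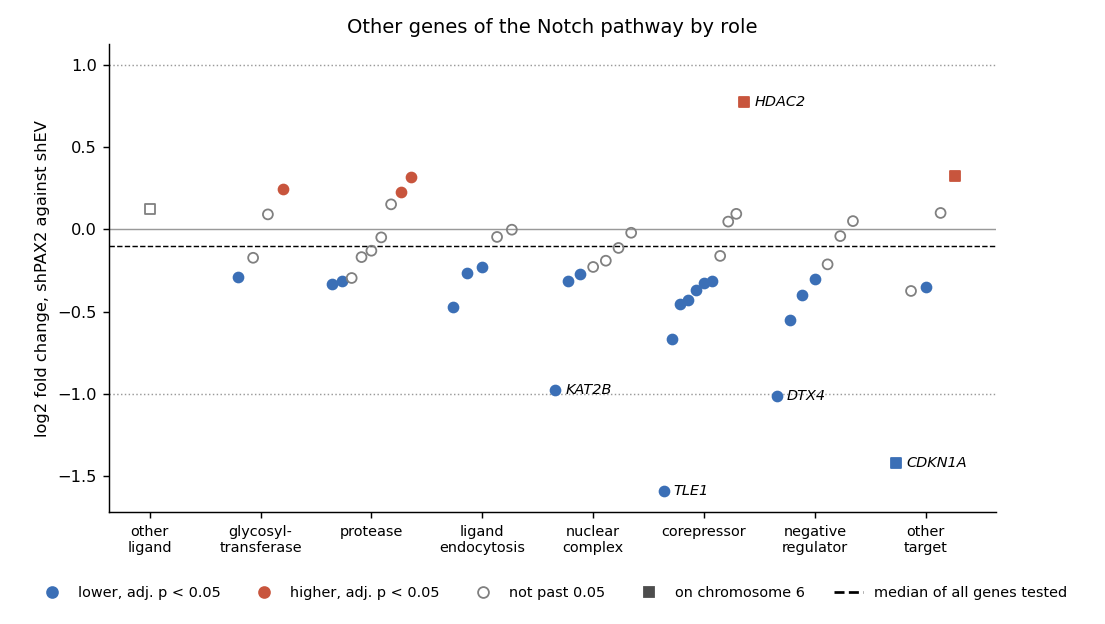
Log2 fold change on the log2(TPM + 0.5) scale, shPAX2 against shEV, of 49 other Notch pathway genes by role, with filled symbols at a limma adjusted p under 0.05, squares on chromosome 6 and a dashed line at the median of all genes tested (-0.10). *TLE1*, *CDKN1A* and *DTX4* lie below the dotted line at -1, and *HDAC2*, the highest at 0.77, is on chromosome 6.

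**Figure D5:**
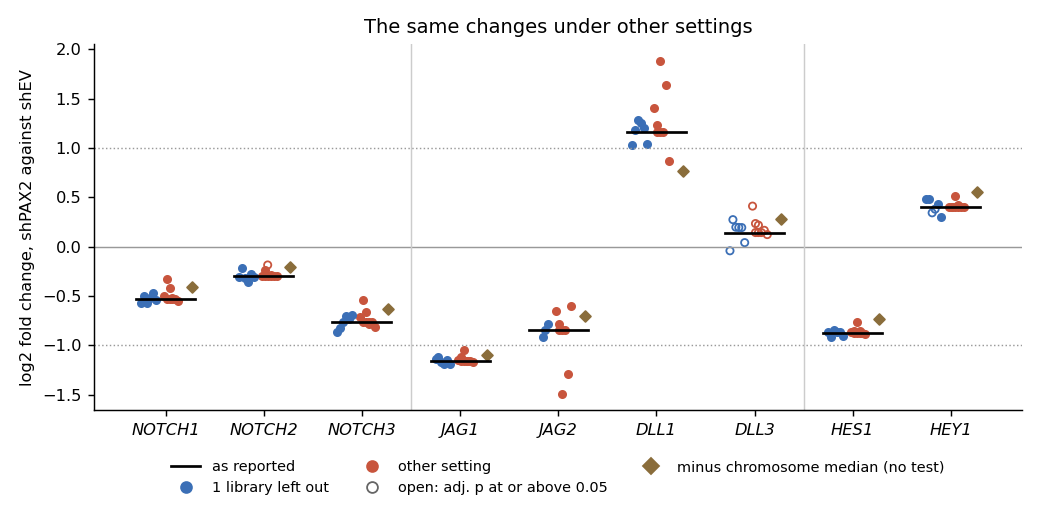
Log2 fold change of each Notch gene, shPAX2 against shEV, on the log2(TPM + 0.5) scale as reported (black bar), with 1 library left out (blue), under the other settings (red, some with another pseudocount or voom's own scale) and minus the median of its chromosome (diamond, no test), with open points at a limma adjusted p of 0.05 or above. *JAG1* spans -1.19 to -1.05 over the tested alternatives, *DLL1* spans 0.87 to 1.88, and *DLL3* falls on both sides of 0.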

How the data were processed

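RNA-Seq of 6 AN3CA libraries was analysed. The authors deposited TPM values, which sum to 1000000 in each library. The submitters' processing notes name hg19, STAR, Subread, featureCounts and edgeR, with no roles or versions. The study's methods describe a stranded, rRNA-depleted kit and give STAR with RSEM for another line, so the counting tool and its strand setting for these values are not given in the sources used here.

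From the TPM values, whole reads were recovered for 100.0% of genes as the smallest whole numbers in the same ratios. Genes with at least 0.5 TPM in at least 3 libraries were tested with limma 3.58.1 (lmFit, eBayes with trend and robust) in R 4.3.3 on log2(TPM + 0.5), two-sided, with no covariate and Benjamini-Hochberg adjustment. Fold changes on this scale understate the change of low genes. Calls needed an adjusted p under 0.05 and, where stated, a change of 1 or more in either direction on the log2 scale. The steps were tested on simulated data. Positions came from GENCODE release 44 on GRCh37, by symbol (86.7% of listed genes). Named were all Notch genes, pathway genes past both thresholds or highest in their role, *PAX2*, and the 3 nearest profiles of each called Notch gene. The Notch genes and the lists were chosen with earlier results of these data known. Replicate numbers did not pair the libraries: correlations of same-numbered deviations were -0.0523, 0.0815 and 0.00140. Reads carry no molecular identifiers, so read numbers show counting error only. Other pseudocounts, filters, scalings, voom, a replicate block and leaving out each library were tried.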

Additional observations from a re-analysis of the deposited data

How the results depend on the processing

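*JAG1*, *NOTCH1*, *NOTCH3* and *HES1* stayed lower, and *DLL1* higher, at an adjusted p under 0.05 in limma in every alternative that tested them. *JAG2* stayed lower in the 11 alternatives that tested it, and leaving out any shEV library removed it by the filter. This is a description, because *JAG2* entered the reported test through shEV alone. The Notch genes past both thresholds numbered 2 (1 lower, 1 higher). They were 1 with a pseudocount of 1 (0 higher) and 1 with the filter at 5 TPM (0 higher), which removes *DLL1* by construction, and 2 lower genes were called with a pseudocount of 0.1 and with voom. At an adjusted p under 0.05 there were 2 higher genes, 1 with the filter at 5 TPM, and 1 to 2 without 1 library, the lower number without shPAX2 replicate 2 or 3. *NOTCH2* was -0.19 under median-of-ratios scaling (not past the test), and *HEY1* ran from 0.30 to 0.49 without 1 library, at 0.34 without shPAX2 replicate 2 and 0.38 without shPAX2 replicate 3, neither past the test. *DLL3* ran from -0.0418 to 0.27 without 1 library. Relative to the median of its chromosome, *NOTCH1* was -0.41, *HES1* -0.73 and *DLL1* 0.76.

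The pathway list past both thresholds had 3 genes, and 1 to 4 without 1 library (1 without shEV replicate 3). Leaving out any shEV library removed *TLE1* by the filter. With the filter at 5 TPM the number was 0, because that filter removes *TLE1*, *CDKN1A* and *DTX4* by construction. At an adjusted p under 0.05 the list had 27 genes. Without 1 library it had 15 to 25, with 2 to 5 higher and 13 to 21 lower. The lowest counts came without shEV replicate 2 (15) and, for higher genes, also without shPAX2 replicate 2 (2). Under median-of-ratios scaling 8 were higher and 11 lower, and 12 were lower under quantile normalization. *SNW1* turned to 0.0921 under median-of-ratios scaling and *DLK2* ran from -0.0079 (without shEV replicate 2) to 0.21 without 1 library. For all of these the cause was not tested. Over all genes the median was -0.10, and 0.0053 under median-of-ratios scaling. Because the numbers share only a name, the replicate block is given once: 8 of the 9 Notch genes and 25 of the 49 list genes passed the adjusted p with the block. *DLL1*, *DLL3*, *JAG2* and *TLE1* rest on few reads, 3 to 110 per library.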
